A study of Oryza sativa with 17 samples.

Results

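Genes of protein processing in the endoplasmic reticulum (ER) were examined in rice seeds germinating at low temperature, 278 genes of the 23223 in the expression table. The members were the genes whose KEGG annotation holds the pathway of that name. Of the 285 genes that carry it, 7 small heat shock protein (HSP) genes lying close together on chromosomes 1 and 3 were left out and are given only for comparison. The ER is where secreted, vacuolar and membrane proteins enter the secretory path. Nascent chains pass the Sec61 channel, receive N-glycans, fold with the help of BiP, calreticulin and protein disulfide isomerases, and leave in COPII vesicles. Chains that fail to fold are ubiquitinated, drawn into the cytosol by the p97 ATPase and degraded. IRE1 and bZIP factors raise chaperone genes when misfolded chains build up. In cereal seeds the same machinery makes the storage proteins and, on germination, the secreted hydrolases.

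WR04-6, a weedy rice accession, was compared with QSZ, a cultivated rice. Seeds of both were held at 10 °C and poly(A) RNA from the seeds was sequenced at 3 times, 10, 12 and 14 DAI, counted in days from imbibition. WR04-6 had 3 libraries at each time, and QSZ had 2 at 10 DAI (replicates 2 and 3) and 3 at 12 and at 14 DAI, which gave 9 and 8 libraries. No seed at another temperature was among the libraries, so no difference can be tied to cold itself. Each accession is 1 line. The paper reports that at this temperature the weedy accession began to germinate earlier than the cultivated one and reached a higher germination rate. Seeds of the 2 lines thus differed in stage of germination at a given DAI. Accession and stage of germination therefore cannot be told apart. In bulk seed RNA, fewer cells of a type and less RNA per cell cannot be told apart either. The labels do not say whether replicates came from separate seed batches, so p-values measure only the spread between these libraries.

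The WR04-6 libraries held 51209499 to 72494532 estimated counts each, and the QSZ libraries 33280479 to 68909607. The lowest totals of all were those of QSZ at 10 DAI, 33280479 and 42313486, and the other QSZ libraries held at least 55123515. WR04-6 libraries placed 6.64 to 9.28% of their counts in their 50 most abundant genes, against 13.0 to 21.6% in QSZ libraries. The members took 2.23 to 2.51% of all FPKM (fragments per kilobase of transcript, scaled to library size) in WR04-6 and 1.64 to 2.16% in QSZ. Their shares of the estimated counts overlapped, at 2.53 to 2.73% in WR04-6 and 2.10 to 2.74% in QSZ. All 11 seed markers checked (glutelins, globulin, oleosins, an embryonic protein and alpha-amylases) were detected, and their summed level was 2670 to 8196 FPKM in WR04-6 and 8382 to 29412 FPKM in QSZ, with the median lower in WR04-6 for 10 of 11. The 4 green-leaf markers summed to 25.2 to 182 FPKM in WR04-6 and 2.19 to 99.3 FPKM in QSZ, in WR04-6 nearly all of it from 1 chlorophyll a-b binding protein gene. The part of these seed and leaf transcripts in the results was not tested. TMM scaling moved the median log2 fold change (WR04-6 minus QSZ) of all genes, which was 0.03 to 0.08 at the 3 times with TMM and 0.22 to 0.44 with library totals alone. FPKM values carry no such scaling, so for small differences the order of FPKM values and the fitted fold change can point opposite ways.

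The members separated the libraries first by accession and then, within QSZ, by time. On log2(FPKM + 0.1) values the first principal component held 65.5% of the variance, with WR04-6 libraries at 7.69 to 11.2 and QSZ libraries at -14.8 to -6.28. The second component held 12.6% and spread the QSZ libraries from -8.82 to 10.2, against -1.18 to 2.81 for WR04-6. QSZ at 10 DAI (-8.82 and -6.84) lay at the end opposite to QSZ at 12 DAI (0.99, 5.82 and 10.2). QSZ at 14 DAI was spread over 1.24, -2.60 and -6.14, the first inside the range of 12 DAI. Correlation of log2 values was taken over all genes that passed the filter on low values, not over the members alone. It was 0.939 to 0.984 (median 0.972) between libraries of 1 group and 0.794 to 0.859 between accessions. Between different times of 1 accession it was 0.886 to 0.982 (median 0.965), a range that overlaps that within groups.

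**Figure D1:**
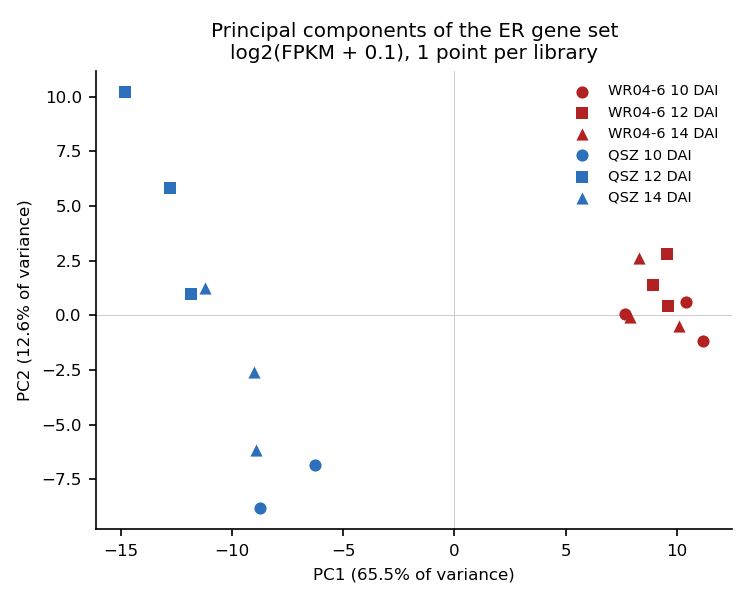
First and second principal components of log2(FPKM + 0.1) of the members in the 17 libraries, each point 1 library coloured by accession and shaped by DAI. WR04-6 lies at 7.69 to 11.2 on the first component and QSZ at -14.8 to -6.28, and QSZ at 10 and 12 DAI fall at opposite ends of the second.

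Differential expression was tested with edgeR's quasi-likelihood test over the 21949 genes that passed the filter on low values, 271 members among them. A differentially expressed gene (DEG) had a Benjamini-Hochberg adjusted p below 0.05 and an absolute log2 fold change (WR04-6 minus QSZ) of at least 1. At 10 DAI, 20 members were up-regulated and 25 down-regulated in WR04-6 vs. QSZ, beside 12.1% and 11.4% of all genes tested. The 12 DAI comparison gave 29 up-regulated members and 32 down-regulated ones, beside 16.3% and 13.2% of all genes. The 14 DAI comparison gave 21 and 28, beside 10.5% and 10.9%, and only 11 up-regulated members without QSZ 14 DAI replicate 2. With the 3 times averaged, 26 members were higher and 36 lower, beside 14.5% and 14.0%. The median log2 fold change of the members was -0.002, -0.03 and 0.05 at the 3 times, and that of all genes was 0.03, 0.06 and 0.08. With library totals in place of TMM the split turned to 32 higher and 20 lower at 10 DAI, to 47 higher and 25 lower at 12 DAI, and to 31 higher and 21 lower at 14 DAI. The balance of up- and down-regulated members thus rests on the scaling.

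In all, 82 of the 271 members (30.3%) were DEGs at 1 or more times, beside 40.8% of all genes, and 189 at none. In WR04-6, 8 members (2.95%) were up-regulated at all 3 times, beside 6.34% of genes, and 19 (7.01%) were down-regulated at all 3, beside 6.05%. None was up-regulated at 1 time and down-regulated at another. The members were sorted into 8 role classes by annotation: 12 stress sensors and transducers, 15 ER chaperones and partners, 11 disulfide enzymes, 21 N-glycan and calnexin-cycle genes, 11 translocon genes, 22 COPII genes, 81 degradation and ubiquitination genes and 38 cytosolic chaperones. The remaining 67 carry the pathway number through a KEGG orthology term but were put in none of these classes. For some the product name does not bear out the term, and for others, such as chloroplastic and mitochondrial small HSPs, it names another compartment. Members whose product name says nothing of their role, such as LOC_Os06g50300 (GRP94), LOC_Os01g50700 (DnaJ subfamily A), LOC_Os01g56070 (RMA1) and LOC_Os08g02140 (CHIP), are named by their orthology term alone. For the counts by class, DEGs in either direction made up 23.6%, 29.5% and 21.3% of all genes tested at 10, 12 and 14 DAI.

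**Figure D2:**
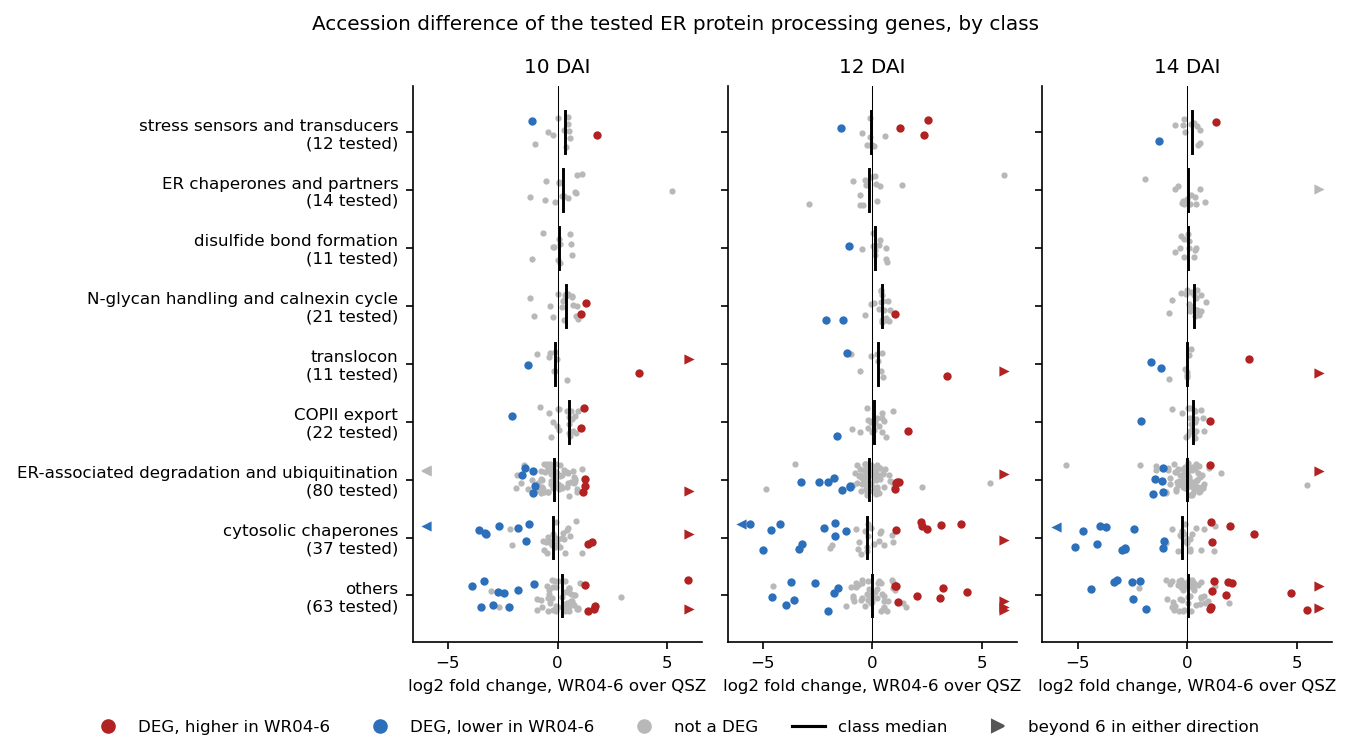
Log2 fold change (WR04-6 minus QSZ, edgeR) of each tested member at 10, 12 and 14 DAI, 1 row per role class and 1 point per member, with DEGs in red (higher in WR04-6) or blue (lower), other members in grey and a vertical bar at the class median; values beyond 6 either way are drawn as triangles at the edge. The medians of the lumenal and export classes lie between -0.16 and 0.52, and the DEG drawn at the lower edge at each time is the cytosolic chaperone gene LOC_Os11g08470.

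The class of ER chaperones and partners held few DEGs. None of the 14 ER chaperone and partner genes tested was a DEG at any time, and adjusted p was below 0.05 for 4 of 14 at each time (41.6%, 47.7% and 39.3% of all genes tested at 10, 12 and 14 DAI); 6, 6 and 5 had an unadjusted p below 0.05. The most abundant of them was BIP1 (LOC_Os02g02410, chromosome 2, 838717 to 842672 in the deposited table, whose genome build no source used here gives), the lumenal HSP70 that holds unfolded chains. Its levels in WR04-6 were 208, 207 and 133 FPKM at 10 DAI, 171, 159 and 169 FPKM at 12 DAI and 111, 162 and 206 FPKM at 14 DAI. In QSZ they were 73.6 and 104 FPKM at 10 DAI, 206, 160 and 327 FPKM at 12 DAI and 151, 96.7 and 149 FPKM at 14 DAI. The libraries did not overlap at 10 DAI, where WR04-6 was higher, and overlapped at the other times. Only the 12 DAI difference had an adjusted p below 0.05, with WR04-6 lower by a log2 fold change of -0.86 ± 0.29 (SE; edgeR adjusted p = 0.0244), and BIP1 became a DEG there (-1.08) without QSZ 12 DAI replicate 2.

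The GRP94 gene LOC_Os06g50300, an HSP90-type chaperone of the lumen, had 179, 173 and 122 FPKM in WR04-6 and 55.1 and 88.9 FPKM in QSZ at 10 DAI, a log2 fold change of 0.91 ± 0.25 (edgeR adjusted p = 0.00893). At 14 DAI it was 0.59 ± 0.22 (edgeR adjusted p = 0.043), with 123, 151 and 152 FPKM in WR04-6 against 93.4, 79.4 and 59.1 FPKM in QSZ. HYOU1 (LOC_Os02g48110), the nucleotide exchange factor of BiP, had 48.9, 50.5 and 43.4 FPKM in WR04-6 and 20.9 and 25.0 FPKM in QSZ at 10 DAI, with a log2 fold change of 0.82 ± 0.14. At 12 DAI its libraries overlapped, at 44.4, 39.1 and 43.5 FPKM in WR04-6 and 40.0, 35.8 and 42.6 FPKM in QSZ. ERDJ2 (LOC_Os04g24180), the J-protein partner of the translocon, was higher at 10 DAI (0.49 ± 0.11) and 14 DAI (0.39 ± 0.10). All 9 WR04-6 libraries, at 62.4 to 74.0 FPKM, were above all 8 QSZ libraries, at 37.7 to 48.6 FPKM. With the times averaged, 3 weakly expressed BiP copies were called. BIP4 (LOC_Os05g35400) was at 0.0924 to 1.47 FPKM in WR04-6 and 0.058 to 3.45 FPKM in QSZ, and was lower averaged over the times by -2.01 ± 0.73 (edgeR adjusted p = 0.0265). That call was lost without WR04-6 10 DAI replicate 2 (-1.90), QSZ 10 DAI replicate 2 (-1.14), QSZ 12 DAI replicate 1 (-1.74) or QSZ 14 DAI replicate 3 (-1.76). A BIP4-like copy, LOC_Os05g51360, was listed at 0 in all 8 QSZ libraries and stayed at or under 0.316 FPKM in WR04-6, with at least 1.76-fold more at 12 DAI. Its call with the times averaged was lost without WR04-6 10 DAI replicate 2 and in both limma fits (0.81 and 0.13, under the fold limit). LOC_Os06g10990, a luminal-binding protein gene with 0.211 to 1.58 FPKM in WR04-6 and 0.0924 to 0.834 FPKM in QSZ, was higher averaged by 1.08 ± 0.38. It lost that call when replicate 2 of WR04-6 (0.87) or of QSZ (0.93) at 10 DAI, or replicate 3 of QSZ at 12 DAI (0.93), was left out. The bound for LOC_Os05g51360 and every later bound take 3 fragments (12 estimated counts) over the group as the limit that a count of 0 allows, and cover counting error only.

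Disulfide bond formation held a single DEG among 11 genes. PDIL1-1 (LOC_Os11g09280), the most abundant isomerase, had 379 to 572 FPKM in WR04-6 and 320 to 601 FPKM in QSZ, and only the 12 DAI difference passed an adjusted p of 0.05 (-0.50 ± 0.19, edgeR adjusted p = 0.0448). PDIL1-4 (LOC_Os02g01010) was 0.67 ± 0.14 higher at 10 DAI and 0.68 ± 0.12 higher at 12 DAI on the log2 scale, with 43.6 to 63.4 FPKM in all WR04-6 libraries and 24.2 to 35.0 FPKM in all QSZ libraries. The DEG was ERO1 (LOC_Os03g52340), the oxidase that recharges the isomerases, down-regulated at 12 DAI by -1.06 ± 0.17 (edgeR adjusted p = 0.00015), with 19.3, 18.6 and 15.7 FPKM in WR04-6 against 27.1, 30.5 and 28.5 FPKM in QSZ. The fold change fell under the limit without WR04-6 12 DAI replicate 3 (-0.97), and with library totals it was -0.68.

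Genes that attach and trim N-glycans had mostly small positive differences. Of 21 members tested, 17 had a positive log2 fold change at each time, with medians of 0.37, 0.43 and 0.29. In either direction, 10, 16 and 9 of the 21 had an adjusted p below 0.05, beside 41.6%, 47.7% and 39.3% of all genes. The 16 at 12 DAI include the 2 genes down-regulated there. With median-ratio scaling 16, 17 and 16 were positive and with library totals 17, 19 and 19. Few passed the fold limit: 2 were up-regulated at 10 DAI, and 1 was up-regulated and 2 down-regulated at 12 DAI. A gene with the orthology of glucosidase I, the enzyme that removes the outermost glucose, is LOC_Os01g69210, whose own product name is an alpha-glucosidase. It was up-regulated by 1.28 ± 0.14 at 10 DAI and 1.05 ± 0.12 at 12 DAI, and by 0.87 ± 0.12 at 14 DAI it was under the limit. It had 18.3 to 22.8 FPKM in the WR04-6 libraries and 6.53 to 10.4 FPKM in the QSZ libraries, with no overlap. The adjacent LOC_Os01g69220 carries the same term under the name of an arabinosyltransferase and overlapped, at 10.4 to 15.7 FPKM in WR04-6 and 11.2 to 14.0 FPKM in QSZ. The 12 DAI value of LOC_Os01g69210 stayed just under 1 without QSZ 10 DAI replicate 3 (0.97), QSZ 12 DAI replicate 2 (0.99) or QSZ 12 DAI replicate 3 (0.97).

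UGGT (LOC_Os02g44510), the folding sensor that puts a glucose back on unfolded glycoproteins, had 55.5, 54.2 and 37.2 FPKM in WR04-6 and 16.5 and 23.1 FPKM in QSZ at 10 DAI. It was up-regulated there by 1.07 ± 0.17 (edgeR adjusted p = 0.000197), and the call was lost without WR04-6 10 DAI replicate 2 (0.997) and without QSZ 10 DAI replicate 2 (0.92). Glucosidase II alpha (LOC_Os03g11720), ribophorin I (LOC_Os05g23600) and STT3A (LOC_Os05g44360) differed by log2 fold changes of 0.86, 0.66 and 0.95 at 10 DAI and of 0.63, 0.65 and 0.54 at 14 DAI, each with an adjusted p below 0.05. STT3A is the catalytic subunit of the oligosaccharyltransferase and had 42.5 to 62.8 FPKM in WR04-6 and 18.8 to 32.5 FPKM in QSZ. Calreticulin (LOC_Os07g14270), the most abundant gene of the class, had 183 to 302 FPKM in WR04-6 and 111 to 224 FPKM in QSZ, and passed only with the times averaged (0.40 ± 0.11, edgeR adjusted p = 0.00597). The 2 down-regulated genes of 12 DAI were minor calreticulin copies. LOC_Os05g43170 had 0.533, 1.10 and 0.702 FPKM in WR04-6 and 2.96, 2.26 and 2.63 FPKM in QSZ (-2.12 ± 0.50). LOC_Os03g61670 had 0.634, 0.381 and 0.684 FPKM in WR04-6 and 0.633, 0.853 and 1.78 FPKM in QSZ (-1.34 ± 0.51), and its call was lost in 6 of the 17 fits that left out 1 library.

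**Figure D3:**
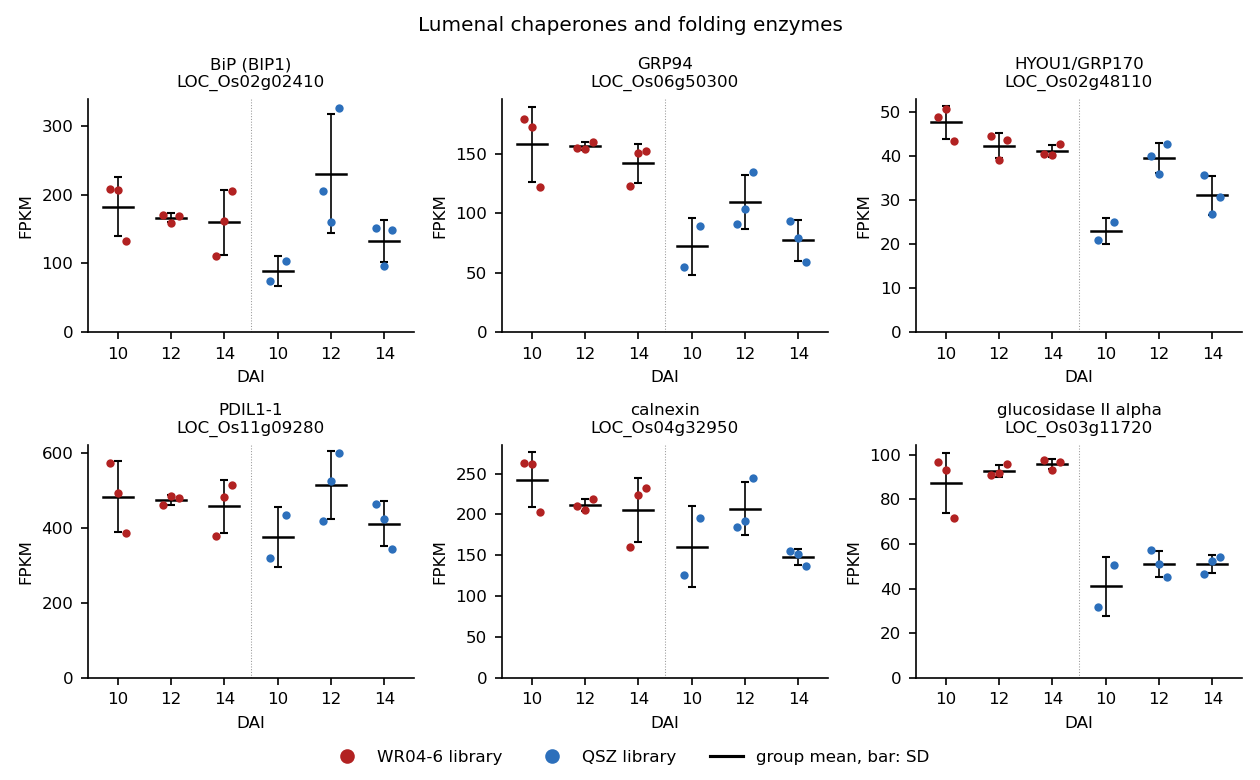
FPKM of BIP1, GRP94, HYOU1, PDIL1-1, calnexin and glucosidase II alpha against DAI, 1 point per library, with WR04-6 left and QSZ right in each panel; horizontal lines are group means and error bars the SD. PDIL1-1 overlaps, at 379 to 572 FPKM in WR04-6 and 320 to 601 FPKM in QSZ, while HYOU1 at 10 DAI does not, at 43.4 to 50.5 FPKM in WR04-6 and 20.9 and 25.0 FPKM in QSZ.

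Subunits of the Sec61 channel moved in different directions. Sec61 gamma LOC_Os02g08180, the most abundant translocon gene, was down-regulated at 10 DAI by -1.34 ± 0.15 (edgeR adjusted p = 1.09e-05), with 249, 261 and 229 FPKM in WR04-6 and 504 and 558 FPKM in QSZ. At 12 and 14 DAI it was lower by -0.56 ± 0.14 and -0.82 ± 0.14, under the fold limit. Both Sec61 beta genes lie near the ends of chromosomes 11 and 12. The first, LOC_Os12g01260, was down-regulated at 12 DAI (-1.18 ± 0.14) and 14 DAI (-1.66 ± 0.15), where it had 19.4, 18.3 and 26.3 FPKM in WR04-6 and 50.4, 62.3 and 53.4 FPKM in QSZ. With library totals its 12 DAI value was -0.79. The second, LOC_Os11g01300, was down-regulated at 14 DAI (-1.21 ± 0.14), with 14.5, 15.3 and 17.5 FPKM in WR04-6 and 28.9, 32.0 and 28.8 FPKM in QSZ, and with library totals that value was -0.91. At 10 DAI its libraries overlapped, at 20.4, 18.3 and 13.4 FPKM in WR04-6 and 15.2 and 14.3 FPKM in QSZ. The ends of these chromosomes are duplicated copies of each other, and reads could be divided between the 2 genes by the counting.

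Among the alpha subunits, the weakly expressed LOC_Os09g33720 was up-regulated at all times. It had 1.15 to 2.47 FPKM in WR04-6 and 0.031 to 0.235 FPKM in QSZ, with log2 fold changes of 3.69 ± 0.55, 3.42 ± 0.46 and 2.81 ± 0.44. A gene with the Sec61 gamma orthology and no named product, LOC_Os04g22300, was listed at 0 in all QSZ libraries and had 0.111 to 1.12 FPKM in WR04-6. It was at least 2.21-, 2.49- and 6.96-fold higher at the 3 times.

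Among COPII vesicle genes, Sec24C and a gene with the SEC24 orthology were the up-regulated members and a SAR1 GTPase, which starts the coat, the down-regulated one. At 10 DAI the class median was 0.52 and 16 of 22 genes had a positive log2 fold change. In either direction, the down-regulated SAR1 gene included, 15 of 22 had an adjusted p below 0.05, beside 41.6% of all genes tested. At 12 DAI the median was 0.06, with 12 positive. Sec24C (LOC_Os04g33690), a cargo-binding coat subunit, had 11.2 to 18.5 FPKM in WR04-6 and 2.39 to 6.67 FPKM in QSZ. It was up-regulated at all times, by 1.22 ± 0.27, 1.62 ± 0.24 and 1.02 ± 0.24. Its 14 DAI value fell under 1 without WR04-6 14 DAI replicate 2 (0.93), QSZ 10 DAI replicate 3 (0.99), QSZ 14 DAI replicate 1 (0.91) or QSZ 14 DAI replicate 2 (0.95), and with median-ratio scaling (0.99). LOC_Os12g24250, which carries the SEC24 orthology but is named a retrotransposon protein in the table, had 18.1 to 23.0 FPKM in WR04-6 and 6.58 to 12.1 FPKM in QSZ, and was up-regulated at 10 DAI by 1.06 ± 0.17, or 0.999 without QSZ 10 DAI replicate 2. SEC31 (LOC_Os07g46370), of the outer coat, was 0.71 ± 0.15 higher at 10 DAI, with 75.1 to 96.1 FPKM in WR04-6 and 37.2 and 52.4 FPKM in QSZ.

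The SAR1A gene LOC_Os12g37360 was the 1 COPII member down-regulated at every time. It had 28.1, 23.3 and 20.9 FPKM in WR04-6 against 96.2 and 73.1 FPKM in QSZ at 10 DAI. At 12 DAI it had 17.3, 18.3 and 17.9 FPKM against 43.3, 43.3 and 38.6 FPKM, and at 14 DAI 10.9, 17.2 and 17.1 FPKM against 44.6, 60.0 and 58.1 FPKM. No WR04-6 library reached the lowest QSZ library, and the log2 fold changes were -2.06 ± 0.19, -1.60 ± 0.18 and -2.13 ± 0.18. The most abundant SAR1A gene, LOC_Os01g15010, was lower by -0.80, -0.57 and -0.68, with 103 to 152 FPKM in WR04-6 and 109 to 191 FPKM in QSZ.

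Of 80 degradation and ubiquitination members tested, DEGs higher in WR04-6 numbered 4, 5 and 2 over the 3 times, and DEGs lower in WR04-6 numbered 5, 7 and 5. Together these were 11.2%, 15.0% and 8.75% of the class, all below the shares over all genes. The sharpest contrast was among SKP1 genes, which encode the adaptor that ties F-box proteins to cullin ligases. SKP1-like protein 14 (LOC_Os07g43240, chromosome 7, 25904636 to 25905610) had 32.0, 50.4 and 41.9 FPKM in WR04-6 at 10 DAI, 42.3, 39.2 and 51.2 FPKM at 12 DAI and 35.1, 33.5 and 46.4 FPKM at 14 DAI. Every QSZ library listed it at 0, which puts WR04-6 at least 251-, 626- and 482-fold higher at the 3 times. The next SKP1 gene lies 2044 bp on and one more 6263 bp beyond that, and neither shared this pattern. The first of these, LOC_Os07g43250, had 0.0744 to 5.09 FPKM in WR04-6 and 0.732 to 2.48 FPKM in QSZ and was down-regulated at 12 DAI (-2.42 ± 0.62). The other, LOC_Os07g43260, was down-regulated at 12 DAI by -3.27 ± 0.67, with 5.89, 5.27 and 8.76 FPKM in WR04-6 and 33.3, 63.3 and 51.3 FPKM in QSZ. How reads were divided among these 3 adjacent copies, or lost where an accession differs from the reference sequence, was not tested.

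Some other SKP1 genes were lower in WR04-6. SKP1-like protein 1 (LOC_Os11g26910), the most abundant member of the class, was lower by -0.68, -0.72 and -0.87, with 162 to 215 FPKM in WR04-6 and 209 to 309 FPKM in QSZ. LOC_Os09g36830 was down-regulated at 12 DAI (-1.77 ± 0.17) and 14 DAI (-1.58 ± 0.17), with 26.4 to 32.5 FPKM over all WR04-6 libraries and 40.6 to 85.1 FPKM over all QSZ libraries. Other down-regulated ligase genes were RMA1 (LOC_Os01g56070), an E3 ligase of the ER membrane, at -1.64, -2.01 and -1.47, and CHIP (LOC_Os08g02140), which ubiquitinates clients of HSP70, at -1.47, -1.04 and -1.11. Without QSZ 12 DAI replicate 3 the 12 DAI value of CHIP was -0.95, and without QSZ 14 DAI replicate 2 its 14 DAI value was -0.96, and with library totals these values were -0.66 and -0.81. The conjugating enzyme gene LOC_Os06g30970 was down-regulated by -1.12, -1.40 and -1.16, with 83.2 to 133 FPKM in WR04-6 and 162 to 240 FPKM in QSZ, and its 10 DAI value was -0.97 without WR04-6 10 DAI replicate 1. With library totals its first and last values were -0.94 and -0.87.

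The extraction step held genes that differed either way. CDC48B (LOC_Os04g42110), a p97-type ATPase gene, had 10.4 to 16.1 FPKM in WR04-6 and 4.15 to 6.30 FPKM in QSZ. It was up-regulated at 10 DAI (1.15 ± 0.18) and 14 DAI (1.06 ± 0.16), and these values stayed under 1 without replicate 3 of WR04-6 (0.98) or of QSZ (0.95) at 10 DAI, and without WR04-6 replicate 1 (0.94) or QSZ replicate 2 (0.99) at 14 DAI. It overlaps a gene on the opposite strand, and whether the counting used strand is not given in the sources used here. DSK2a (LOC_Os03g03920), a shuttle for ubiquitinated proteins, had 50.3 to 63.5 FPKM in WR04-6 and 21.6 to 27.7 FPKM in QSZ. The fitted log2 differences were 0.90 ± 0.12, 1.05 ± 0.11 and 0.997 ± 0.11, of which only the second passed the limit of 1, and without QSZ 10 DAI replicate 3 (0.97) or QSZ 12 DAI replicate 1 (0.99) it did not. The DOA10-type ligase gene LOC_Os08g01040 was up-regulated at 10 DAI (1.27 ± 0.16), with 9.61, 9.89 and 9.73 FPKM in WR04-6 and 3.62 and 3.23 FPKM in QSZ. Derlin-1 (LOC_Os05g09550), of the retrotranslocation channel, was down-regulated at 12 DAI (-1.01 ± 0.16), or -0.96 without WR04-6 12 DAI replicate 1 and -0.87 without QSZ 12 DAI replicate 3, and with library totals it was -0.62.

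Of 37 cytosolic chaperones tested, 8, 11 and 12 were down-regulated at 10, 12 and 14 DAI, beside 11.4%, 13.2% and 10.9% of all genes. Another 3, 7 and 4 were up-regulated, beside 12.1%, 16.3% and 10.5%. In either direction these were 29.7%, 48.6% and 43.2% of the class. Their median log2 fold change was -0.19, -0.26 and -0.25, and 0.01, 0.14 and 0.06 with library totals, which left 8, 10 and 10 down-regulated. The most abundant, HSC70-2 (LOC_Os11g47760), had 423 to 589 FPKM in WR04-6 and 392 to 581 FPKM in QSZ, with no adjusted p below 0.05. The DEGs were a J-protein gene, small HSPs, an HSP90, other HSP70 genes and BAG genes. A more abundant DnaJ subfamily A gene, LOC_Os03g44620, overlapped between accessions, at 366 to 476 FPKM in WR04-6 and 373 to 682 FPKM in QSZ.

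The DnaJ subfamily A gene LOC_Os01g50700 (chromosome 1, 29119761 to 29124636), a co-chaperone of HSP70, had 17.6, 11.9 and 16.9 FPKM in WR04-6 against 142 and 121 FPKM in QSZ at 10 DAI. At 12 DAI it had 23.4, 20.7 and 23.0 FPKM against 383, 464 and 785 FPKM, and at 14 DAI 18.2, 11.3 and 21.0 FPKM against 342, 222 and 156 FPKM. Every QSZ library was above every WR04-6 library. The log2 fold changes were -3.33 ± 0.38, -4.99 ± 0.40 and -4.13 ± 0.38 (edgeR adjusted p = 1.56e-05, 3.21e-07 and 1.52e-06).

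The class III small HSP gene LOC_Os02g54140 had 9.17, 10.7 and 16.1 FPKM in WR04-6 against 132 and 118 FPKM in QSZ at 10 DAI, and 21.0, 11.4 and 17.2 FPKM against 192, 263 and 263 FPKM at 12 DAI. At 14 DAI it had 13.4, 8.75 and 13.8 FPKM in WR04-6 against 172, 206 and 90.7 FPKM in QSZ. The libraries did not overlap, and it was down-regulated by -3.61 ± 0.38, -4.23 ± 0.37 and -3.99 ± 0.37. Small HSPs bind unfolding proteins and keep them from aggregating. A further small HSP gene, LOC_Os04g36750, was put in this class by its orthology term, and its product name gives no compartment. It had 1.73 to 16.3 FPKM in WR04-6 and 38.2 to 79.5 FPKM in QSZ, the highest WR04-6 value being that of 10 DAI replicate 3. It was down-regulated by -3.25 ± 0.70, -4.60 ± 0.71 and -3.71 ± 0.68. The class II gene LOC_Os10g30162 was lower at 0.408 to 1.13 FPKM in WR04-6 and 2.37 to 4.35 FPKM in QSZ (-1.81, -2.22 and -2.82).

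HSP82 (LOC_Os04g01740), a cytosolic HSP90, was down-regulated by -2.65 ± 0.46, -3.36 ± 0.44 and -2.83 ± 0.43, with 1.24 to 3.53 FPKM in WR04-6 and 6.51 to 26.9 FPKM in QSZ. Of the HSP70 genes, LOC_Os03g16920 had 20.7, 29.2 and 55.5 FPKM in WR04-6 against 69.0 and 82.8 FPKM in QSZ at 10 DAI, and 31.0, 19.8 and 22.4 FPKM against 176, 110 and 232 FPKM at 12 DAI. Its log2 fold changes were -1.32 ± 0.45, -3.21 ± 0.44 and -2.42 ± 0.43, and the first lost its call when replicate 1 (-1.03) or 2 (-1.18) of WR04-6 at 10 DAI was left out, and likewise for replicate 2 (-1.37) or 3 (-1.28) of QSZ. LOC_Os01g62290 was down-regulated at 12 DAI (-1.72 ± 0.21) and 14 DAI (-1.13 ± 0.21), the second being -0.85 without QSZ 14 DAI replicate 1 and -0.82 with library totals. LOC_Os05g38530 was down-regulated at 12 DAI (-1.70 ± 0.26). Both lay close to level in WR04-6, at 50.0 to 62.8 and 32.7 to 45.1 FPKM, while QSZ ranged over 68.8 to 166 and 35.4 to 112 FPKM. BAG4 (LOC_Os01g61500), a regulator of HSP70, was down-regulated by -1.46, -1.22 and -1.05, with 17.8 to 24.1 FPKM in WR04-6 and 32.2 to 49.3 FPKM in QSZ. With library totals the last 2 values were -0.83 and -0.75.

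A pair of HSP70 genes on chromosome 11 went opposite ways at low levels. LOC_Os11g08470, annotated as partial, was listed at 0 in all WR04-6 libraries and had 0.0548 to 0.623 FPKM in QSZ, so WR04-6 was at least 24.8-, 8.23- and 6.83-fold lower. LOC_Os11g08440 had 0.223 to 1.04 FPKM in WR04-6 and 0 to 0.0842 FPKM in QSZ, at least 7.40-fold higher in WR04-6 at 10 DAI and up-regulated by 3.15 ± 1.12 and 3.02 ± 1.08 at 12 and 14 DAI. The 12 DAI call was lost in 5 and the 14 DAI call in 9 of the 17 fits that left out 1 library. Whether the counting divided reads between similar copies was not tested.

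Some cytosolic chaperones were up-regulated. The HSC70-2 gene LOC_Os12g38180 had 23.3 to 32.9 FPKM in WR04-6 and 7.90 to 13.4 FPKM in QSZ and was up-regulated at 10 DAI (1.41 ± 0.19) and 14 DAI (1.09 ± 0.17), the second being 0.99 without WR04-6 14 DAI replicate 1 and 0.97 without QSZ 14 DAI replicate 2. The small HSP gene LOC_Os01g08860 was up-regulated at 10 DAI (1.57 ± 0.29) and 14 DAI (1.15 ± 0.25), with 73.1 to 90.2 FPKM in WR04-6 and 15.1 to 44.9 FPKM in QSZ. Without QSZ 14 DAI replicate 2 its 14 DAI value was 0.97. Another small HSP gene, LOC_Os02g03570, had 9.94, 14.2 and 12.8 FPKM in WR04-6 and 0.999, 0.462 and 0.264 FPKM in QSZ at 12 DAI. It was up-regulated by 4.04 ± 0.47 there and 1.95 ± 0.42 at 14 DAI. The HSP70 regulator BAG1 (LOC_Os02g38410) was up-regulated at 12 DAI (2.26 ± 0.61), with 7.92, 8.15 and 6.52 FPKM in WR04-6 and 2.50, 1.02 and 0.203 FPKM in QSZ. A pair of further BAG genes were up-regulated at 12 DAI alone, LOC_Os06g03640 by 2.20 ± 0.72 and LOC_Os08g43270 by 1.09 ± 0.38. The first call was lost without replicate 2 of WR04-6 (2.05) or of QSZ (1.84) at 12 DAI. The second was lost without WR04-6 12 DAI replicate 1 (1.01) or 2 (0.99), or QSZ 12 DAI replicate 2 (1.14) or 3 (0.75).

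**Figure D4:**
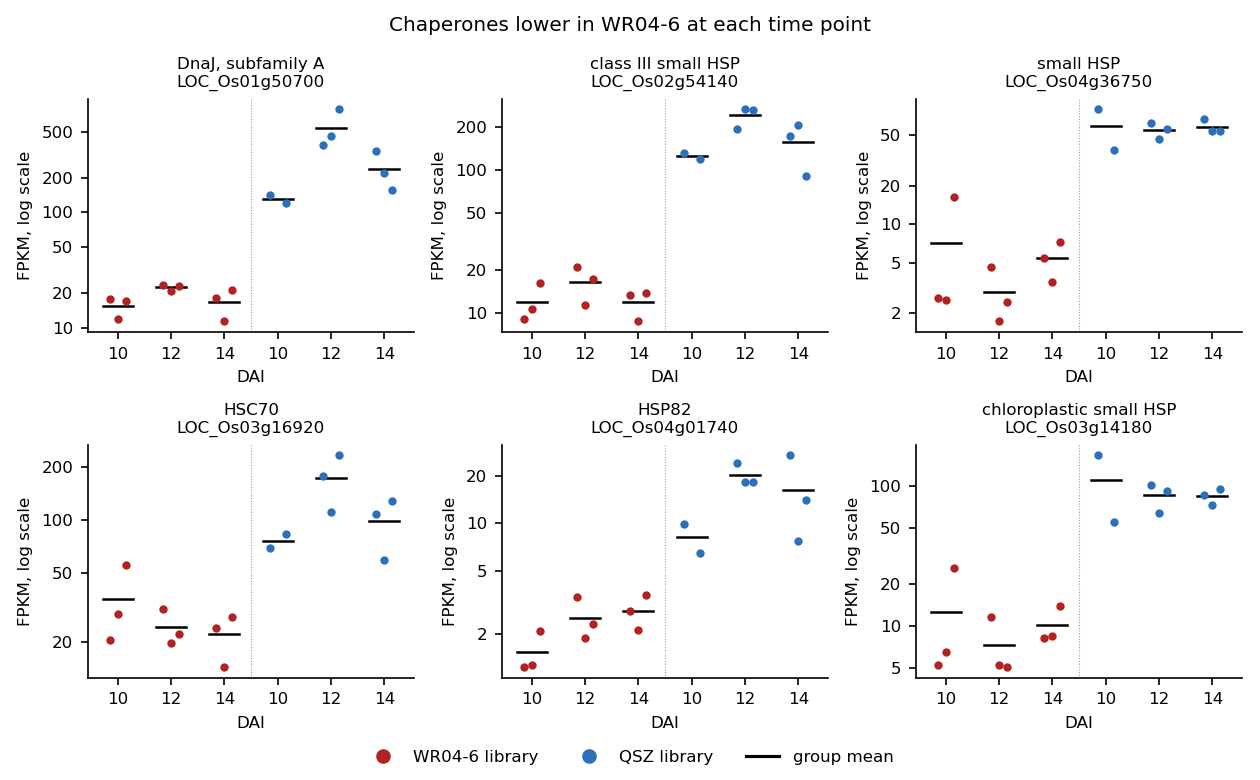
FPKM on a log axis against DAI for 5 genes of the cytosolic chaperone class and a chloroplastic small HSP gene, 1 point per library. WR04-6 is left and QSZ right in each panel, with horizontal lines at the group means. The DnaJ A gene LOC_Os01g50700 lies at 11.3 to 23.4 FPKM in WR04-6 and 121 to 785 FPKM in QSZ, and LOC_Os03g14180 at 5.07 to 26.1 FPKM in WR04-6 and 55.1 to 165 FPKM in QSZ.

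The 7 small HSP genes left out of the set were alike in direction. All 7 had a negative log2 fold change at each time, 6 of 7 were down-regulated at each, and the medians were -2.74, -3.19 and -3.25. Those genes therefore stand on the same side as the class II gene LOC_Os10g30162 and the class III gene LOC_Os02g54140. They stand opposite to LOC_Os01g08860 and LOC_Os02g03570, whose product names give no small HSP class.

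Among the 67 genes outside the role classes, 6, 10 and 11 were up-regulated and 9, 8 and 7 down-regulated, in all 23.8%, 28.6% and 28.6% of the 63 tested. LOC_Os06g49920, an uncharacterized gene under the GRP94 term, was listed at 0 in all QSZ libraries and had 2.33 to 4.34 FPKM in WR04-6, at least 43.6-, 101- and 75.5-fold higher. LOC_Os12g13600, a hypothetical gene under the BiP term, was also listed at 0 in QSZ and reached 0.643 FPKM in WR04-6, at least 2.07-fold higher at 12 DAI and 1.17-fold at 14 DAI. At 10 DAI the same limit came to 0.729 and so does not show a higher level. Its calls at 10 and 14 DAI were lost in 10 and 5 of the 17 fits that left out 1 library. LOC_Os02g51119 was up-regulated by 1.72 ± 0.36, 1.14 ± 0.30 and 1.12 ± 0.30, with 1.81 to 2.75 FPKM in WR04-6 and 0.311 to 1.12 FPKM in QSZ, and its 14 DAI value was 0.93 without QSZ 14 DAI replicate 3. LOC_Os08g02160, of these genes, and LOC_Os08g31870, a degradation gene under the p97 term, were listed at 0 in all QSZ libraries and did not exceed 0.115 and 0.0202 FPKM in WR04-6, too little to be tested.

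Those down-regulated at all times included small HSPs of other compartments. The chloroplastic LOC_Os03g14180 had 5.07 to 26.1 FPKM in WR04-6 and 55.1 to 165 FPKM in QSZ (-3.35, -3.92 and -3.34), and the mitochondrial LOC_Os02g52150 had 1.39 to 5.67 FPKM in WR04-6 and 5.94 to 28.4 FPKM in QSZ (-2.45, -3.56 and -2.47). The other direction was seen in the adjacent pair LOC_Os10g07210, a chloroplastic small HSP gene, and LOC_Os10g07200, which carries the small HSP term under another product name. LOC_Os10g07210 had 2.94 to 11.5 FPKM in WR04-6 and 0.0263 to 3.67 FPKM in QSZ and was up-regulated at 12 DAI (3.20 ± 0.74) and 14 DAI (2.06 ± 0.71), the second call lost in 5 of the 17 fits that left out 1 library. LOC_Os10g07200 had 1.10 to 3.51 FPKM in WR04-6 and 0 to 0.366 FPKM in QSZ and was up-regulated at 12 DAI (4.32 ± 1.07) and 14 DAI (4.72 ± 1.14). Nuclear transport factor NTF2B (LOC_Os01g57840), of the family that carries the GTPase Ran into the nucleus, was down-regulated by -3.89 ± 0.94, -4.57 ± 0.93 and -4.38 ± 0.92, with 0 to 0.272 FPKM in WR04-6 and 1.08 to 3.88 FPKM in QSZ. The uncharacterized LOC_Os12g40300 had 1.84 to 4.30 FPKM in WR04-6 and 18.2 to 29.7 FPKM in QSZ (-3.49, -3.73 and -3.19). LOC_Os04g57880, a chloroplastic J-protein gene that overlaps an oligosaccharyltransferase gene on the opposite strand, was down-regulated by -2.97, -2.02 and -2.54. It lost its call without QSZ 10 DAI replicate 3 at 10 DAI (-1.56), in 5 of 17 such fits at 12 DAI and in 3 of 17 at 14 DAI. The most abundant gene of the group, NTF2 (LOC_Os08g42000), was lower by -0.94 ± 0.17 at 10 DAI, with 73.4, 78.1 and 68.2 FPKM in WR04-6 and 99.2 and 141 FPKM in QSZ.

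Stress sensors and transducers differed by gene and by time. IRE1 (LOC_Os07g28820, chromosome 7, 16870468 to 16875355), the membrane kinase and ribonuclease that senses unfolded protein, had 21.3, 19.2 and 21.5 FPKM in WR04-6 against 12.2 and 14.5 FPKM in QSZ at 10 DAI. At 12 DAI it had 20.7, 18.0 and 19.1 FPKM against 19.5, 21.1 and 20.4 FPKM, and at 14 DAI 22.6, 21.5 and 22.8 FPKM against 17.4, 16.2 and 15.2 FPKM. WR04-6 was above QSZ at 10 and 14 DAI in these values and overlapped it at 12 DAI. After TMM scaling IRE1 was higher in WR04-6 at 10 DAI (0.40 ± 0.12, edgeR adjusted p = 0.012) and lower at 12 DAI (-0.45 ± 0.10, edgeR adjusted p = 0.00236), neither past the fold limit. The translation factor eIF2 alpha (LOC_Os03g18510), the target of stress kinases, was the most abundant of the class and had no adjusted p below 0.05, at 61.1 to 86.3 FPKM in WR04-6 and 52.7 to 76.1 FPKM in QSZ.

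The kinase of that factor, GCN2 (LOC_Os04g41510), was up-regulated at 10 DAI by 1.78 ± 0.28, with 13.7, 12.2 and 11.8 FPKM in WR04-6 and 2.94 and 3.26 FPKM in QSZ. At 12 DAI it had 14.5, 13.4 and 12.9 FPKM in WR04-6 and 13.1, 7.69 and 11.2 FPKM in QSZ. A second gene annotated as such a kinase, LOC_Os03g40400, was down-regulated at all times, by -1.17, -1.43 and -1.27, with 2.42 to 5.03 FPKM in WR04-6 and 5.53 to 9.12 FPKM in QSZ. With library totals its first and last values were -0.998 and -0.97. Of the bZIP genes, LOC_Os01g55150 (bZIP6) had 7.23, 6.56 and 3.63 FPKM in WR04-6 against 1.17, 0.648 and 0.520 FPKM in QSZ at 12 DAI and was up-regulated there by 2.52 ± 0.41. LOC_Os02g14910 was up-regulated at 12 DAI by 2.34 ± 0.50, with 4.94, 3.90 and 2.49 FPKM in WR04-6 and 0.952, 0.616 and 0.165 FPKM in QSZ. LOC_Os12g09250 was up-regulated at 12 DAI (1.268 ± 0.30) and 14 DAI (1.298 ± 0.30). LOC_Os02g14910 and LOC_Os12g09250 are called bZIP genes by their orthology term alone, as their product names give no such role. Whether these bZIP genes act on chaperone genes was not tested.

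Between times, most DEGs among the members, as among all genes, lay between 10 and 12 DAI in QSZ. There 25 members (9.23%) were DEGs, 11 higher and 14 lower at 12 DAI, beside 13.3% of all genes. The QSZ libraries of 10 DAI had the fewest estimated counts of all libraries, and the part of depth in these changes was not tested. Between 14 and 12 DAI 2 were DEGs, beside 0.282%, and between 14 and 10 DAI 4, beside 1.62%. The count for 14 vs. 12 DAI was 15 without QSZ 12 DAI replicate 1, 10 without QSZ 14 DAI replicate 1, 1 without QSZ 12 DAI replicate 2 or QSZ 14 DAI replicate 3, and 0 without QSZ 12 DAI replicate 3. The count for 14 vs. 10 DAI was 1 without QSZ 10 DAI replicate 2 or 3, or without QSZ 14 DAI replicate 1. In WR04-6 none was a DEG between 12 and 10 DAI, beside 0.0273% of all genes, with 16 at an unadjusted p below 0.05 in edgeR, and 0 DEGs in DESeq2 with 18 at that unadjusted p. Between 14 and 12 DAI 2 were DEGs in WR04-6, beside 0.688%. Between 14 and 10 DAI edgeR called none, beside 0.241%, with 23 at an unadjusted p below 0.05, and DESeq2 called 3.

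The QSZ changes ran both ways between 10 and 12 DAI. BIP1 (LOC_Os02g02410) was higher at 12 DAI than at 10 DAI by 1.53 ± 0.34 (edgeR adjusted p = 0.00496), a call lost without QSZ 10 DAI replicate 2 (1.37, adjusted p = 0.0535 with edgeR). The J-protein gene LOC_Os01g50700 was higher by 2.19 ± 0.41, GCN2 (LOC_Os04g41510) by 1.91 ± 0.29 and the chloroplastic HSP90-5 (LOC_Os09g29840) by 1.14 ± 0.16, or 0.97 with library totals. IRE1 (LOC_Os07g28820) and HYOU1 (LOC_Os02g48110) were higher by 0.74 and 0.92, under the fold limit. The genes that fell included bZIP6 (LOC_Os01g55150), which had 15.0 and 16.4 FPKM at 10 DAI, 1.17, 0.648 and 0.520 FPKM at 12 DAI and 3.28, 8.16 and 9.45 FPKM at 14 DAI, and LOC_Os02g14910, which had 9.08 and 7.68 FPKM at 10 DAI, 0.952, 0.616 and 0.165 FPKM at 12 DAI and 1.71, 3.85 and 4.09 FPKM at 14 DAI. Their log2 changes at 12 DAI against 10 DAI were -4.20 ± 0.46 and -3.75 ± 0.55. The class V small HSP gene LOC_Os07g33350 changed by -3.24 ± 0.70, a call lost without QSZ 10 DAI replicate 2 (-2.32). The small HSP gene LOC_Os10g07210 changed by -2.55 ± 0.77, lost without QSZ 10 DAI replicate 2 (-2.32) or 3 (-2.68) or QSZ 12 DAI replicate 2 (-2.45). LOC_Os08g33910 was at or under 0.117 FPKM in QSZ at 10 DAI and at 0 later, and had 0.0457 to 0.233 FPKM in WR04-6.

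BAG2 (LOC_Os01g67950), a regulator of HSP70, was at 9.39 and 2.99 FPKM in QSZ at 10 DAI, listed at 0 in all 3 libraries at 12 DAI and at 2.18, 1.55 and 6.59 FPKM at 14 DAI. In WR04-6 at 12 DAI it had 2.32, 2.20 and 1.98 FPKM, at least 30.0-fold higher than in QSZ. BAG2 and bZIP6 were the 2 QSZ DEGs between 14 and 12 DAI. The bZIP6 call (3.04 ± 0.42) was lost without QSZ 12 DAI replicate 2 (2.92) or 3 (2.85) or QSZ 14 DAI replicate 3 (2.77), and the BAG2 call was lost without QSZ 12 DAI replicate 3. The 2 WR04-6 DEGs between 14 and 12 DAI were SKP1-like protein 11 (LOC_Os07g43250), at 3.96, 1.89 and 5.09 FPKM against 0.344, 0.310 and 0.0744 FPKM (3.85 ± 0.65), and LOC_Os03g08860, at 17.3, 18.7 and 32.2 FPKM against 9.12, 9.70 and 7.80 FPKM (1.35 ± 0.27). Both calls were lost without any 1 of the WR04-6 12 DAI libraries, at 4.16, 4.05 and 3.44 for the first and 1.38, 1.41 and 1.26 for the second, which was also lost without WR04-6 14 DAI replicate 3 (1.004).

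The accession difference itself changed between times for 29 of the 271 members (10.7%; edgeR F test of both interaction terms, adjusted p below 0.05), beside 8.98% of all genes tested. For 18 of them the difference (WR04-6 minus QSZ) was lower at 12 than at 10 DAI, and for 11 it was higher. This split takes a change of any size and leaves out 14 DAI. LOC_Os03g08860, for example, is among the 18 at -0.702 and -0.748, with 0.61 at 14 DAI. The first kind held IRE1, GCN2, HYOU1, HSP90-5, SEC24 genes LOC_Os04g04020 and LOC_Os11g29200, and both DOA10-type ligase genes. The second held bZIP6, BAG2, the small HSP gene LOC_Os02g03570, Sec61 gamma LOC_Os06g44374, SEC12-like protein 2 (LOC_Os11g39650) and the conjugating enzyme gene LOC_Os01g46926. The last had 165, 171 and 163 FPKM in WR04-6 against 199 and 186 FPKM in QSZ at 10 DAI (-0.45 ± 0.15) and 139, 171 and 166 FPKM against 53.1, 55.6 and 50.2 FPKM at 12 DAI (1.21 ± 0.14). SEC24 LOC_Os04g04020 had 51.2, 47.7 and 40.0 FPKM in WR04-6 against 19.5 and 25.7 FPKM in QSZ at 10 DAI (0.80 ± 0.15) and 49.8, 43.2 and 41.6 FPKM against 42.0, 37.4 and 40.4 FPKM at 12 DAI. For both genes the QSZ libraries of 10 and 12 DAI did not overlap and those of WR04-6 did.

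The number of interactions depended strongly on single libraries, from 8 to 41 over the 17 fits that left out 1. It was 15 without WR04-6 10 DAI replicate 2, 18 without WR04-6 10 DAI replicate 3, 8 and 10 without WR04-6 12 DAI replicates 2 and 3, and 19 without WR04-6 14 DAI replicate 2 or 3. It was 13 and 15 without QSZ 10 DAI replicates 2 and 3, and 19 and 16 without QSZ 12 DAI replicates 2 and 3. The conjugating enzyme, BAG2, bZIP6, HSP90-5, IRE1 and HYOU1 passed in all 17 such fits. QSZ at 10 DAI rests on 2 libraries and is the base of this contrast in QSZ.

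**Figure D5:**
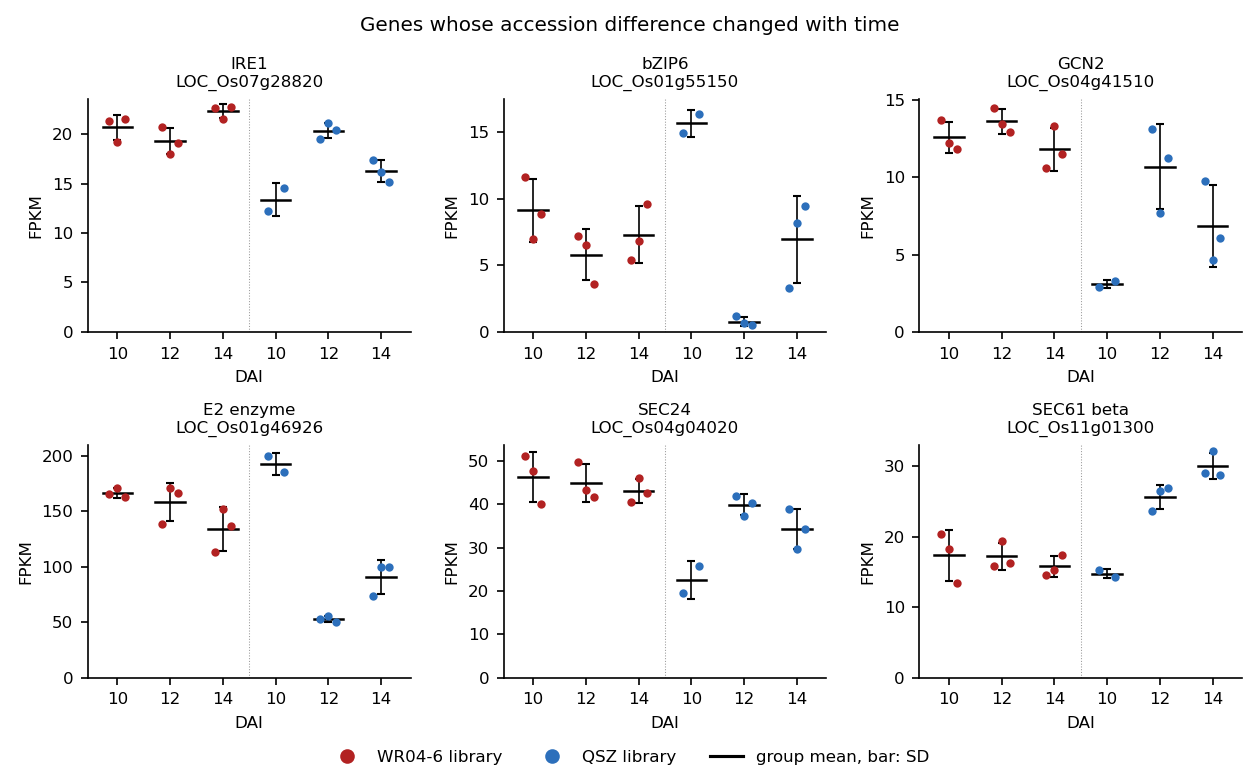
FPKM against DAI of 6 of the 29 members whose accession difference changed with time, 1 point per library, with WR04-6 left and QSZ right in each panel; horizontal lines are group means and error bars the SD. The conjugating enzyme LOC_Os01g46926 lies at 139 to 171 FPKM in WR04-6 and 50.2 to 55.6 FPKM in QSZ at 12 DAI, and bZIP6 at 3.63 to 7.23 FPKM in WR04-6 and 0.520 to 1.17 FPKM in QSZ.

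Pathways next to ER processing, counted without the members, were counted by the same rule, to be read against 23.6%, 29.5% and 21.3% of all genes called in either direction at the 3 times. In N-glycan biosynthesis (31 tested) 1, 3 and 3 genes were up-regulated and 2, 3 and 1 down-regulated at the 3 times. In SNARE interactions of vesicle transport (44 tested) 4, 7 and 7 were up-regulated and 2, 3 and 2 down-regulated, and in protein export (41 tested) 1, 1 and 0 and 4, 5 and 4. Ubiquitin-mediated proteolysis (147 tested) had 19, 15 and 16 up-regulated and 11, 12 and 8 down-regulated, with medians of 0.22, 0.08 and 0.20.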

How the data were processed

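Poly(A) RNA of germinating seeds was sequenced in 17 libraries in 6 groups of accession and DAI, assigned by sample title. Per the submitters' processing notes, cutadapt 1.9, HISAT2 2.0.4 and StringTie 1.3.4d were used. The authors deposited 1 table with estimated counts and FPKM per gene, together with KEGG terms and product names; gene IDs are LOC_Os models, and the genome build is not given in the labels. Among low values the commonest estimated count was 4, so 1 fragment was taken as 4. Precision thus follows from fewer fragments than the 33280479 to 72494532 estimated counts a library.

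Estimated counts were rounded and tested with edgeR 4.0.16 (R 4.3.3; TMM, 1 mean per group, shared dispersion) for genes that reached 0.1 FPKM in 2 or more libraries. The other comparisons were median-ratio scaling, library totals, other filters, counts divided by 4, DESeq2 1.42.0, limma 3.58.1 on log2(FPKM + 0.1) or log2(FPKM + 1), each time alone, a replicate block, no fold limit, and leaving out each library. Scripts were tested on simulated data.

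Named by rule were 44 genes: up to 12 called at all 3 times in each direction, the most abundant gene of each class, the 6 smallest interaction p, up to 6 called between times in each accession, and genes at 0 in all libraries of 1 accession. Another 43 were chosen after their values were seen. The members and lists were chosen with earlier results of these data known. Protein and promoter sequences were not analysed here.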

Additional observations from a re-analysis of the deposited data

Results flagged for a closer look

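The accession difference changed between times, by a test of both interaction terms over all genes (edgeR, adjusted p), for 29 members. Among the genes named above, the adjusted p was 0.01029 for the conjugating enzyme LOC_Os01g46926, 0.0116 for BAG2 (LOC_Os01g67950), 0.01191 for bZIP6 (LOC_Os01g55150), 0.01314 for HSP90-5 (LOC_Os09g29840), 0.01446 for IRE1 (LOC_Os07g28820) and 0.01462 for HYOU1 (LOC_Os02g48110). These stayed below 0.05 whichever library was left out. It was 0.01458 for Sec61 beta LOC_Os11g01300, above 0.05 only without QSZ 10 DAI replicate 3 (0.05169), 0.0191 for SEC24 LOC_Os04g04020 and 0.02598 for SKP1-like protein 11 (LOC_Os07g43250), both below 0.05 in 15 of 17 such fits. It was 0.02267 for GCN2 (LOC_Os04g41510; 13 of 17), 0.0254 for the small HSP gene LOC_Os02g03570 (12 of 17) and 0.03131 for NTF2 (LOC_Os08g42000; 9 of 17). The weakest were LOC_Os09g36830 at 0.04456 (3 of 17), DOA10 (LOC_Os08g01040) at 0.04688 (5 of 17) and LOC_Os03g08860 at 0.04835 (4 of 17).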

How the results depend on the processing

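With no limit on the fold change, 68 and 49 members were higher and lower in WR04-6 at 10 DAI, 69 and 66 at 12 DAI, 58 and 49 at 14 DAI and 100 and 79 averaged, and 98 and 17 were called in QSZ for 12 vs. 10 and 14 vs. 10 DAI. Library totals gave 32 higher at 10 DAI and 47 at 12 DAI. With limma on log2(FPKM + 0.1), 38, 50 and 33 were higher at 10, 12 and 14 DAI, 23 were lower averaged and 4 were called in QSZ for 14 vs. 12 DAI. With limma on log2(FPKM + 1), 31 were higher at 10 DAI, 18, 15 and 14 were lower at 12 DAI, at 14 DAI and averaged, and 1 was called in WR04-6 for 14 vs. 10 DAI. DESeq2 called 8 in QSZ and 4 in WR04-6 for 14 vs. 12 DAI, 3 in WR04-6 for 14 vs. 10 DAI and 60 interactions. Leaving out each library in turn gave 14 to 23 higher and 22 to 28 lower at 10 DAI, 22 to 35 and 25 to 34 at 12 DAI, 11 to 24 and 24 to 29 at 14 DAI, and 23 to 30 and 32 to 37 averaged. Counts between times were 18 to 31, 0 to 15 and 1 to 5 in QSZ for 12 vs. 10, 14 vs. 12 and 14 vs. 10 DAI, and 0 to 0, 0 to 3 and 0 to 0 in WR04-6, and interactions were 8 to 41. HSP90-5 (LOC_Os09g29840) averaged over times turned from -0.28 to 0.01 with library totals and 0.02 and 0.019 with the limma fits. LOC_Os08g33910 in QSZ for 12 vs. 10 DAI ranged from -7.065 to 0.0 over the fits that left out 1 library, the 0.0 without QSZ 10 DAI replicate 2. At 12 and 14 DAI the deviations of same-numbered libraries from their group means correlated at 0.01 to 0.30 between accessions. Those of differently numbered libraries correlated at -0.26 to 0.16. At 10 DAI the deviations of the 2 QSZ libraries mirror each other, so the correlations there cannot show pairing. Whether replicate numbers pair the libraries is therefore not settled. With a replicate block, interactions were 18 and calls in QSZ for 14 vs. 12 and 14 vs. 10 DAI were 1 and 1. The cause of these shifts was not tested. At the depth used, members below about 0.1 FPKM rest on a few fragments.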
